A study of Mus musculus with 378 samples.

Results

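A set of genes that mark regulatory T cells was followed in single T cells from mouse melanoma. They are Foxp3, Il2ra, Ikzf2, Ikzf4, Nrp1, Gpr83, Ccr8, Capg, Swap70 and Itgb8, 10 of the 23420 genes in the expression table, and they were taken from a list of names, with no threshold on a measured value. All 10 were matched to the table. The names were chosen with earlier results of these data known. Regulatory T cells are CD4 T cells that restrain other immune cells, and the transcription factor Foxp3 is needed for their identity. They hold the high-affinity receptor for interleukin 2, a cytokine that they need but hardly make, and in tumours they are known to dampen the response of effector T cells. Foxp3 acts with partner factors such as those of the Ikaros family, and together they keep a shared set of surface receptors and suppressor genes switched on.

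The cells came from B16F10 tumours, a transplanted melanoma line, grown in C57BL/6 mice that were either labelled as Il27ra KO or wild type (WT). Il27ra encodes the receptor chain specific for interleukin 27, and the stated interest of the series is what that cytokine does to T cells in the tumour. Titles give 94 Il27ra KO CD4, 94 WT CD4, 92 Il27ra KO CD8 and 94 WT CD8 single-cell libraries made by Smart-seq2, a full-length cDNA method, and 1 library labelled Population for each, and the protocol text names CD8+ T cells alone. A cell was kept if it had 1000 or more genes above 0 FPKM, which left 78 KO-labelled CD4, 79 WT CD4, 74 KO-labelled CD8 and 67 WT CD8 cells, with medians of 2650.5, 2307, 2797 and 2919 genes. FPKM is the number of fragments per kilobase of transcript, scaled to library size, and a gene above 0 FPKM is called found below. Each genotype and cell type is 1 sample, and no label ties a cell to an animal, so no test between groups was possible and every interval is an exact Clopper-Pearson 95% interval that covers counting error alone. Beside some counts of 0 stand the share that 3 cells of the group would make and the upper limit of this interval. The titles of the WT CD4 cells also carry a p3 where the other groups carry a p2, and each of the 4 groups carries a word of its own (bird, dog, rabbit or cat). Whatever these stand for cannot be told apart from genotype or from cell type in any comparison between the groups.

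The checks of the labels came out differently. Cd4 was found in 89.7% of KO-labelled and 79.7% of WT CD4 cells, against 2.70% of KO-labelled and 8.96% of WT CD8 cells, and Cd8a in 7.69% and 7.59% of the CD4 cells, against 94.6% and 83.6% of the CD8 cells. Il27ra itself was found in 52.6% of KO-labelled and 48.1% of WT CD4 cells and in 52.7% of KO-labelled and 38.8% of WT CD8 cells, so it was not lower in single cells labelled KO. Only between the CD4 population libraries was it lower in KO, at a log2(FPKM + 1) of 6.59 against 8.01 in WT. Each genotype direction below follows the label alone.

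Foxp3, on the X chromosome (GRCm38, chrX:7573644-7595245, + strand), was present in a large share of the CD4 cells and nearly missing from CD8 cells. It was found in 39 of 78 KO-labelled CD4 cells (50%, interval 38.5 to 61.5%) and 30 of 79 WT CD4 cells (37.97%, 27.3 to 49.6%), and the intervals overlap. In CD8 cells it was found in 3 of 74 KO-labelled cells (4.05%, 0.844 to 11.4%) and 0 of 67 WT cells. For the 0 of 67, 3 cells would make 4.48%, and the upper limit is 5.36%. The gene was close to an on or off signal in each cell. Where found, its lowest, median and highest values were 0.8, 916 and 3413 FPKM in KO-labelled CD4 cells and 8.26, 1213 and 3580 FPKM in WT CD4 cells, and 36 of the 39 and 27 of the 30 cells were above 100 FPKM. The population libraries gave 628 FPKM in KO-labelled CD4, 842 FPKM in WT CD4, 0 in KO-labelled CD8 and 3.25 FPKM in WT CD8 cells. In such population libraries fewer cells of a type and less RNA per cell cannot be told apart. They also differed in RNA of other cell types, whose part in the values below was not tested. Summed melanoma genes reached 45.9 FPKM in KO-labelled and 14658 FPKM in WT CD8, and 37.5 and 85.7 FPKM in KO-labelled and WT CD4. Summed class II genes reached 20863 FPKM in KO-labelled and 158.13 FPKM in WT CD8, and 5225 and 7507 FPKM in KO-labelled and WT CD4.

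**Figure D1:**
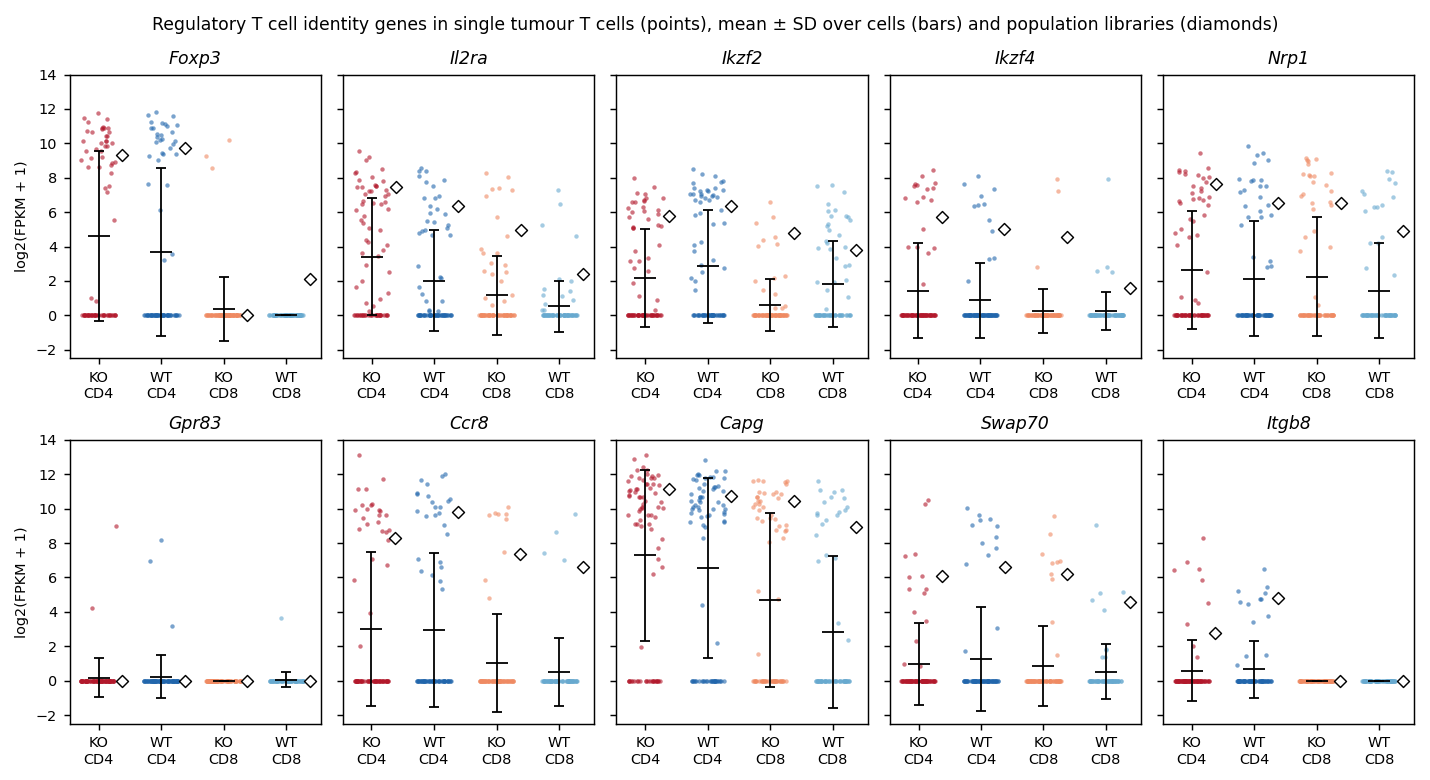
Level of each of the 10 genes, as log2(FPKM + 1), in every kept single cell (points), with the mean and SD over cells (bars) and the population library of the same group (diamonds), for KO-labelled CD4 (n = 78), WT CD4 (n = 79), KO-labelled CD8 (n = 74) and WT CD8 cells (n = 67). Of the points above 0, almost all of those for Foxp3 and all of those for Itgb8 lie in the CD4 groups. Most Itgb8 points of the CD4 groups are at 0, and Nrp1 has many points above 0 in all 4 groups.

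Set against CD8 cells of the same genotype label, most of the genes were higher in CD4 cells. A gene was called higher or lower when its mean log2(FPKM + 1) over cells differed by 1 or more, among genes found in 10% or more of the cells of one of the groups compared. This scale follows the share of cells with the gene as well as its level. By that rule 6 of the 9 members that passed the filter were higher in CD4 than in CD8 cells in the KO-labelled groups, against 2.79% of all 8473 genes, and 5 of 9 in WT, against 2.08% of all 8961 genes. None was lower, against 7.7% and 14.1% of all genes. Foxp3, Ikzf4 and Itgb8 in both labels, and Ccr8 in WT, were under 10% in CD8 cells, so they passed the filter only through the CD4 cells. The median member difference was 1.57 in KO-labelled and 1.03 in WT cells, while that over all genes was -0.10 and -0.33. Gpr83 failed the filter in both.

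Il2ra encodes the alpha chain of the interleukin 2 receptor, which raises its affinity for the cytokine (chr2:11642807-11693193, + strand). It was found in 60.3% of KO-labelled and 41.8% of WT CD4 cells, against 28.4% and 20.9% of the CD8 cells of the same labels. Mean log2(FPKM + 1) was 3.40 ± 3.41 (SD, n = 78) in KO-labelled and 2.02 ± 2.95 (n = 79) in WT CD4 cells, and 1.16 ± 2.29 (n = 74) and 0.53 ± 1.47 (n = 67) in the CD8 cells. CD4 cells therefore lay higher by 2.24 in the KO-labelled and 1.49 in the WT pair. The SD over cells exceeded the difference in both KO-labelled groups and in WT CD4 cells, and was just under it in WT CD8 cells. The population libraries had the same order, with 174.9 FPKM in KO-labelled CD4, 82.6 in WT CD4, 29.6 in KO-labelled CD8 and 4.31 in WT CD8 cells.

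Of the Ikaros family members, Ikzf2 encodes Helios and Ikzf4 encodes Eos, which works with Foxp3 in gene repression. Ikzf2 (chr1:69531214-69687245, - strand) was found in 43.6% of KO-labelled and 48.1% of WT CD4 cells, against 20.3% of KO-labelled and 41.8% of WT CD8 cells, so in WT the shares of the 2 cell types were close. Its mean level there was 52.7 FPKM in WT CD4 and 17.7 FPKM in WT CD8 cells. The CD4 minus CD8 difference of Ikzf2 was 1.57 in KO-labelled and 1.03 in WT cells. The WT value was just over the call, which held in 6 of 10 other settings, and the lowest value was 0.41. Ikzf4 (chr10:128630843-128645991, - strand) was rarer, in 23.1% of KO-labelled and 15.2% of WT CD4 cells, against 4.05% and 5.97% of CD8 cells. Its CD4 minus CD8 difference was 1.18 in KO-labelled and 0.63 in WT cells.

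Among the surface receptors, Ccr8, a chemokine receptor known from regulatory T cells of tumours (chr9:120092114-120094906, + strand), was found in 33.3% of KO-labelled and 31.6% of WT CD4 cells, against 12.2% and 5.97% of CD8 cells. It was high where present, with medians of 748 and 927 FPKM in KO-labelled and WT CD4 cells. Nrp1, or neuropilin-1, is a coreceptor for semaphorins and is used in mice to mark regulatory T cells made in the thymus (chr8:128358604-128503363, + strand). It separated the cell types least of the receptors that passed the filter: it was found in 42.3% of KO-labelled and 31.6% of WT CD4 cells, against 33.8% and 23.9% of CD8 cells, with differences of 0.37 and 0.68. Gpr83, a G protein-coupled receptor (chr9:14860210-14870789, + strand), was found in 2 of 78 KO-labelled and 3 of 79 WT CD4 cells and in 0 of 74 and 1 of 67 CD8 cells, and was listed at 0 in all 4 population libraries.

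Itgb8, the integrin beta chain that pairs with alpha V to release active TGF-beta (chr12:119158022-119238802, - strand), was found in CD4 cells alone. It was present in 9 of 78 KO-labelled (11.5%, interval 5.41 to 20.8%) and 13 of 79 WT CD4 cells (16.5%, 9.06 to 26.5%), against 0 of 74 KO-labelled and 0 of 67 WT CD8 cells. In these CD8 groups 3 cells would make 4.05% and 4.48%, and the upper limits are 4.86% and 5.36%. Its CD4 minus CD8 differences, 0.58 in KO-labelled and 0.66 in WT cells, stayed under the call because few cells had it. In the population libraries it was 5.84 FPKM in KO-labelled and 26.99 FPKM in WT CD4 cells and listed at 0 in both CD8 libraries.

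Capg and Swap70 encode proteins of the actin cytoskeleton, a filament-capping protein of the gelsolin family and an actin-binding signalling protein. Capg (chr6:72544391-72562983, + strand) was the member found in most CD4 cells, 70.5% of KO-labelled and 63.3% of WT, against 48.6% and 31.3% of CD8 cells. Its CD4 minus CD8 difference was 2.59 in KO-labelled and 3.72 in WT cells, the largest after Foxp3 in the KO-labelled pair and the largest of the members in WT. Swap70 (chr7:110221711-110283506, + strand) was found in 17.9% of KO-labelled and 16.5% of WT CD4 cells, against 13.5% and 13.4% of CD8 cells, and differed by 0.11 and 0.74.

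Within CD4 cells, most of the other genes were found together with Foxp3, and Nrp1 was not. The 39 KO-labelled and 30 WT CD4 cells with Foxp3 were set against the 39 and 49 without it. Of 8 members past the filter, 7 were higher in the cells with Foxp3 in both labels, against 14.9% of all genes in KO-labelled and 22.7% in WT cells, and none was lower, against 2.99% and 1.74%. The member median was 2.38 in KO-labelled and 3.10 in WT cells, beside 0.19 and 0.38 over all genes. Ikzf4, Swap70 and Itgb8 in both labels, and Ikzf2 in KO-labelled cells, were under 10% without Foxp3, so they passed the filter only through the cells where they are high. Cells with Foxp3 also held more genes, with medians of 2809 against 2500 genes in KO-labelled and 2822 against 2119 in WT cells. Among all kept cells, 22 libraries lacked B2m or Cd3 genes. In WT cells B2m was found in 30 of 30 with Foxp3 against 43 of 49 without it, and Cd4 in 29 of 30 against 34 of 49. In KO-labelled cells B2m was found in 39 of 39 either way, and Cd4 in 32 of 39 against 38 of 39. Without the libraries lacking B2m or Cd3 genes, 7 members were still higher with Foxp3 in both labels. The shares of all genes were then 16% in KO-labelled and 20.3% in WT cells.

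Ikzf2 followed Foxp3 most closely. It was found in 31 of 39 KO-labelled cells with Foxp3, against 3 of 39 without it, and in 30 of 30 WT cells with Foxp3, against 8 of 49 without it. Its mean log2(FPKM + 1) was 4.12 ± 2.76 against 0.26 ± 1.00 in KO-labelled cells and 6.50 ± 1.47 against 0.62 ± 1.68 in WT cells. Ikzf4 was found in 18 of 39 KO-labelled cells with Foxp3 and in 0 of 39 without it, and in 10 of 30 WT cells with Foxp3, against 2 of 49. For the 0 of 39, 3 cells would make 7.69%, and the upper limit is 9.03%.

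Il2ra and Capg were found in most cells with Foxp3 and in a good part of the others. For Il2ra the counts were 35 of 39 with Foxp3 against 12 of 39 without it in KO-labelled cells and 25 of 30 against 8 of 49 in WT cells, and the differences were 4.53 and 4.15. Capg was found in 36 of 39 against 19 of 39 KO-labelled cells and in 28 of 30 against 22 of 49 WT cells. Its differences, 5.59 and 5.92, were the largest of the members, and its median level was 1964 FPKM with Foxp3 against 0 without it in KO-labelled cells and 2088 FPKM against 0 in WT cells.

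Swap70 and Itgb8 were each found in a minority of the CD4 cells with Foxp3 and in few CD4 cells without it, although Swap70 was also found in CD8 cells. Swap70 was present in 14 of 39 KO-labelled cells with Foxp3 and 0 of 39 without it, and in 11 of 30 against 2 of 49 WT cells. Itgb8 was present in 9 of 39 against 0 of 39 KO-labelled cells and in 11 of 30 against 2 of 49 WT cells. Ccr8 overlapped less, with 17 of 39 against 9 of 39 KO-labelled cells and 18 of 30 against 7 of 49 WT cells, and differences of 1.61 and 3.91. The highest Ccr8 value of the KO-labelled CD4 cells, 8843 FPKM, was in a cell without Foxp3.

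Nrp1 did not go with Foxp3. It was found in 15 of 39 KO-labelled cells with Foxp3, against 18 of 39 without it, and in 10 of 30 WT cells with Foxp3, against 15 of 49 without it, with differences of -0.80 and 0.36. Of the cells that had Nrp1, 45.5% of the KO-labelled (interval 28.1 to 63.6%) and 40% of the WT (21.1 to 61.3%) had Foxp3, near the shares among all CD4 cells. Gpr83 was found in 2 of 39 against 0 of 39 KO-labelled cells and in 2 of 30 against 1 of 49 WT cells, too few to compare.

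**Figure D2:**
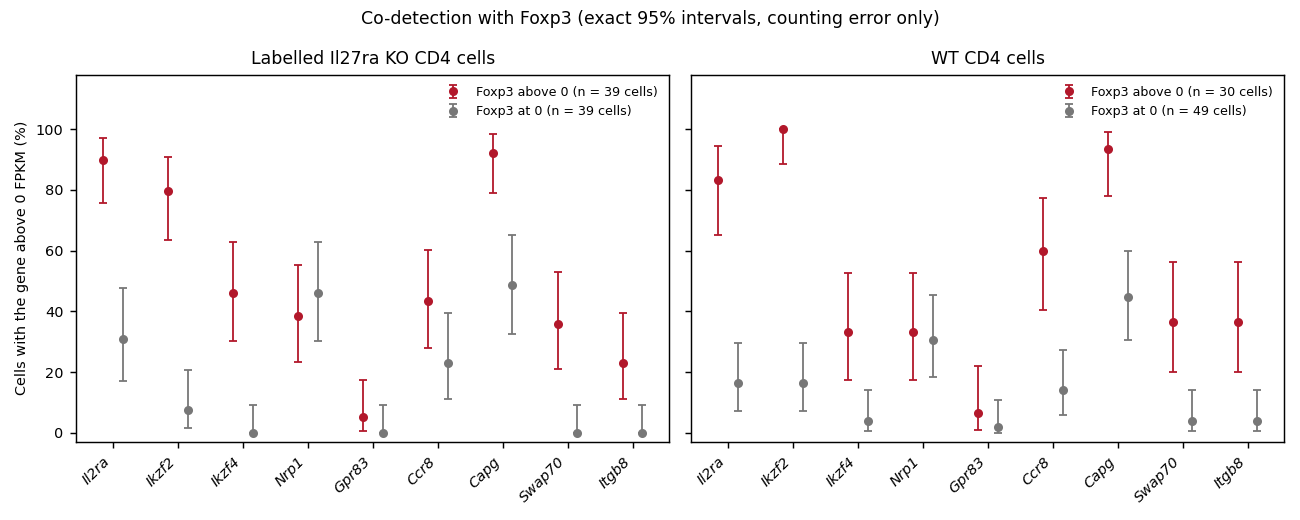
Percentage of CD4 cells in which each of 9 genes was found, in cells with Foxp3 above 0 (red; 39 KO-labelled and 30 WT cells) and at 0 (gray; 39 and 49), with exact 95% intervals for counting error. The 2 intervals lie apart for Il2ra, Ikzf2, Ikzf4, Capg, Swap70 and Itgb8 in both panels, and for Ccr8 in the WT panel, while those of Nrp1 overlap.

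Markers of some other cell types were also found more often in cells with Foxp3, and their part in these differences was not tested. At least 1 of 5 class II antigen presentation genes was found in 43.6% of KO-labelled cells with Foxp3, against 12.8% without it, and in 66.7% against 10.2% of WT cells. The summed class II level ranged over 0 to 90344 FPKM with Foxp3 and 0 to 158420 without it in KO-labelled cells, and over 0 to 1521 and 0 to 1740 in WT cells. At least 1 of 10 macrophage and monocyte genes was found in 33.3% against 12.8% of KO-labelled and 26.7% against 14.3% of WT cells, with summed levels of 0 to 1839 against 0 to 6634 FPKM and 0 to 1602 against 0 to 768 FPKM. The median macrophage level was 0 with and without Foxp3 in both labels. Of the 10 macrophage genes, Csf1r, Emr1 and C1qa were at 0 in all KO-labelled cells with Foxp3, and Csf1r, Emr1, C1qc and Fcgr1 in all WT cells with Foxp3, while each of the others was found in at least 1 cell. At least 1 of 7 fibroblast and endothelial genes was found in 43.6% against 15.4% of KO-labelled and 26.7% against 26.5% of WT cells. At least 1 of 7 melanoma genes was found in nearly every kept cell, from 94.9% of KO-labelled CD4 to 98.5% of WT CD8 cells. With against without Foxp3, the shares were 97.4% and 92.3% in KO-labelled and 100% and 95.9% in WT cells. In WT, 3 or more were found in 3 of 30 against 1 of 49 cells. Either CD8 chain gene was found in 16 of 39 against 13 of 39 KO-labelled and 15 of 30 against 9 of 49 WT cells. Without the cells that had 3 or more macrophage, class II or dendritic cell markers, 6 of the 7 members were still higher with Foxp3 in both labels, against 17.9% of all genes in KO-labelled and 20.7% in WT cells, and Itgb8 was not, at 0.83 in KO-labelled and 0.85 in WT cells. Depth was a further difference between the WT cells with and without Foxp3. Estimated reads had medians of 546000 with against 479000 without Foxp3 in KO-labelled cells and 519000 against 254000 in WT cells. In cells matched on the number of genes, 6 members in KO-labelled and 5 in WT cells were higher with Foxp3, against 8.55% and 10% of all genes. Itgb8 fell under the call in both, at 0.74 and 0.35, and Ikzf4 in WT, at 0.90.

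The promoters of Il2ra and Swap70, which were found with Foxp3, and of Nrp1, which was not, are shown because they set genes with and without that pattern side by side. RefSeq (GRCm38.p6) has promoter entries for 8 of the 10 members, and these 3 windows overlap no annotated exon. The Nrp1 window lies inside the gene span given above, which starts at chr8:128358604, while the Il2ra and Swap70 windows lie before theirs. Each gives the 250 bases before the RefSeq start, 5′ to 3′ on the + strand, at chr2:11642542-11642791, chr7:110221453-110221702 and chr8:128358823-128359072, with motif matches in capitals.
Il2ra: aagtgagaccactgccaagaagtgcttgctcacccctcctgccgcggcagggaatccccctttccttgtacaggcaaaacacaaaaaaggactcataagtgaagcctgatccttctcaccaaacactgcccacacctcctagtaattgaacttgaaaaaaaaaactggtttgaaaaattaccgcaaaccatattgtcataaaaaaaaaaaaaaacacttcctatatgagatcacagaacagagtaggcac
Swap70: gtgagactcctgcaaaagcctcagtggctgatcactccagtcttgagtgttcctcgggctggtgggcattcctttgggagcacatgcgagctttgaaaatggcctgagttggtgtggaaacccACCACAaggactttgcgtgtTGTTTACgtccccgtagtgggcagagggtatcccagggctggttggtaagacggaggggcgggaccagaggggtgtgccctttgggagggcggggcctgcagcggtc
Nrp1: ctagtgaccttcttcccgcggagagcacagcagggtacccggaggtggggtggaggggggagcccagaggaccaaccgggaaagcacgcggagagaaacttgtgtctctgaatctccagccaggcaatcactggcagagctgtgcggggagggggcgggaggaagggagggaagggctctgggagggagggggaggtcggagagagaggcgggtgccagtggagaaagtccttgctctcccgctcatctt
Both strands were searched for a STAT motif (TTCNNNGAA), a forkhead motif (TGTTTAC), a RUNX motif (TGTGGT), an NFAT core (GGAAAA) and an AP-1 motif (TGANTCA). In Swap70 the capitals mark a RUNX match on the other strand and, nearer the start, a forkhead match, which do not overlap. The windows of Il2ra and Nrp1 held none of the 5. Among the windows not shown, those of Ccr8, Capg and Itgb8, which were also found with Foxp3, and of Gpr83 held none either. A window of Foxp3 itself held a STAT and an NFAT match. Over 32851 promoter windows of this length, 7.02% held the STAT, 3.17% the forkhead, 14.05% the RUNX, 20.4% the NFAT and 6.75% the AP-1 motif, so each match is also found in many other promoters. Base composition differed too, with 42.4% G and C in Il2ra, 59.6% in Swap70 and 64.4% in Nrp1, around a median of 52.4% over all promoters.

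Counted per cell, the other members were found together. Cells with Foxp3 had a median of 5 of the 9 others, with a range of 1 to 7 in KO-labelled and 2 to 7 in WT cells, against a median of 1 without Foxp3 in both labels. At least 3 others were found in 36 of 39 against 9 of 39 KO-labelled cells and in 28 of 30 against 7 of 49 WT cells. CD8 cells had a median of 1 and had at least 3 others in 17 of 74 KO-labelled and 11 of 67 WT cells. Single cells outside the Foxp3 group could still hold much of the set, chosen here for that count: 2 WT CD4 cells without Foxp3 had 6 others each. One of them held Il2ra at 110.95, Ikzf2 at 217.75, Ccr8 at 2788, Capg at 3522, Swap70 at 779 and Itgb8 at 23.02 FPKM, and its Cd4 was 773 FPKM. All 3 KO-labelled CD8 cells with Foxp3, at 385, 608 and 1155 FPKM, had both Cd8a and Cd8b1 and no Cd4, and they held 6, 3 and 2 of the other members.

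**Figure D3:**
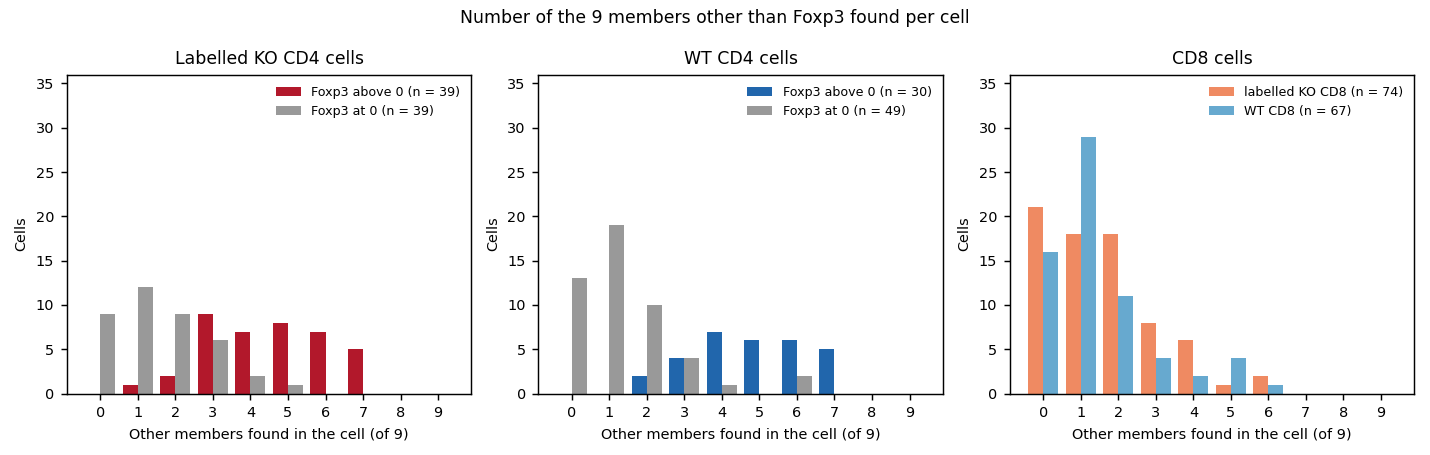
Number of cells by how many of the 9 members other than Foxp3 were found in the cell, for KO-labelled CD4 and WT CD4 cells with Foxp3 above 0 (colour) and at 0 (gray), and for KO-labelled and WT CD8 cells. The median is 5 members in CD4 cells with Foxp3 and 1 in every other group shown.

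Pairs of members were compared as well, across cells that differed in depth, whose part was not tested. The phi coefficient, a correlation of found against not found across the cells of a group, is given as a description. Among KO-labelled CD4 cells it was highest for Foxp3 with Ikzf2 (0.72) and Il2ra (0.60), and among WT CD4 cells for the same pairs (0.81 and 0.66) and for Il2ra with Ikzf2 (0.62). Swap70 with Itgb8 reached 0.46 in KO-labelled and 0.45 in WT cells. Nrp1 lay between -0.22 (Ikzf4) and 0.10 (Capg) in KO-labelled cells and between -0.19 (Il2ra) and 0.12 (Capg) in WT cells. Restricted to cells with Foxp3, Il2ra with Ikzf2 was 0.04 in KO-labelled cells, and in WT cells it has no value because every cell had Ikzf2. In the same cells, Ikzf4 with Ccr8 gave 0.33 in KO-labelled and 0.29 in WT cells, Swap70 with Itgb8 gave 0.35 and 0.28, and Nrp1 with Ccr8 gave -0.27 and -0.29.

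**Figure D4:**
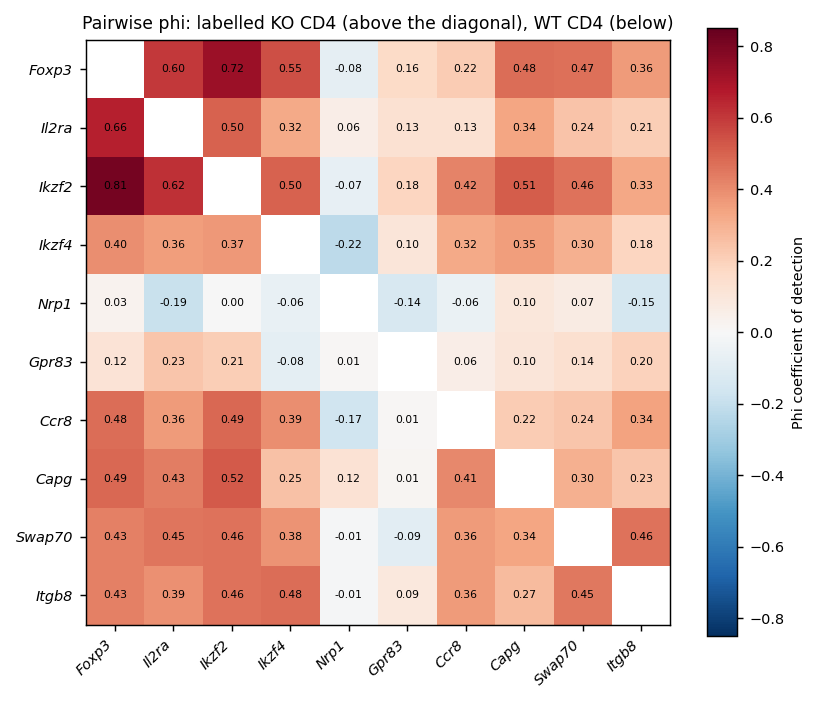
Phi coefficient of detection for each pair of the 10 genes over 78 KO-labelled CD4 cells (above the diagonal) and 79 WT CD4 cells (below). Foxp3 with Ikzf2 is darkest in both (0.72 and 0.81), and the values of Nrp1 lie between -0.22 and 0.12.

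Ranked among 6202 genes by the smaller of the phi coefficients of the KO-labelled and WT cells, Ikzf2 and Il2ra were the genes most like Foxp3. Capg ranked 11, Swap70 20, Ikzf4 31, Itgb8 45 and Nrp1 4933. Ccr8, with coefficients of 0.22 and 0.48, ranked lower than these except Nrp1, at the first 5.22% of the genes. The other genes in the first 10 were Arl5a, a small GTPase of the ARF family (0.57 in KO-labelled and 0.69 in WT cells), the costimulatory receptor Tnfrsf4 (0.57 and 0.61), Folr4, the folate receptor 4 gene (0.59 and 0.56), Neb, the giant muscle protein nebulin (0.56 and 0.56), the protease gene Gzmb (0.54 and 0.62), Glrx, a glutaredoxin (0.51 and 0.56), the costimulatory receptor Tnfrsf9 (0.51 and 0.68) and Gimap7, a GTPase of lymphocytes (0.49 and 0.59). Neb was found in 22 of 39 KO-labelled cells with Foxp3, against 2 of 39 without it, and in 19 of 30 against 5 of 49 WT cells. At the other end, Tcf7, a factor of naive and memory T cells, was the gene least like Foxp3 by the larger of its coefficients, -0.42 and -0.54.

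**Figure D5:**
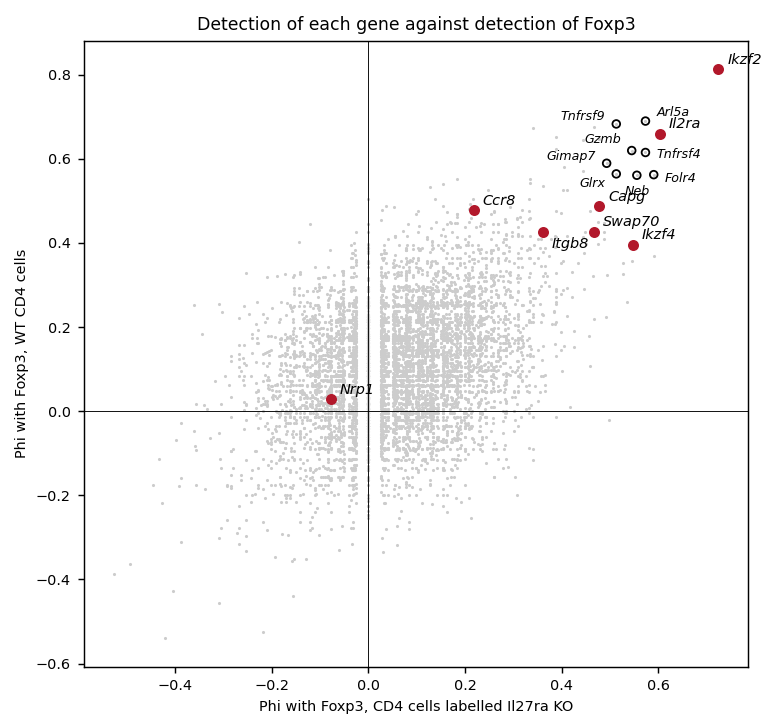
Phi coefficient with Foxp3 in KO-labelled (horizontal) and WT CD4 cells (vertical) for genes found in at least 10% of the CD4 cells of both labels (gray), with members in red and the other genes most like Foxp3 as open circles. Ikzf2 lies farthest out (0.72 and 0.81), and Nrp1 lies at -0.08 and 0.03.

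Genes of the wider pathway were counted beside the same shares of all genes, 14.9% higher and 2.99% lower with Foxp3 in KO-labelled cells and 22.7% higher and 1.74% lower in WT cells. The lists were chosen with earlier results of these data known, so the counts are descriptions and not tests. Listed genes could also pass the filter only through the cells where they are high. Gzmb was found in 6.12% of WT cells without Foxp3, against 63.3% with it. In the other direction, Tcf7 was found in 6.67% of WT cells with Foxp3, against 61.2% without it. Of a list of 30 effector and suppressor genes of regulatory T cells, 25 of the 28 that passed the filter were higher with Foxp3 in KO-labelled and 27 of 28 in WT cells, none was lower, and the medians were 2.87 and 3.60. Tnfrsf4 had mean log2(FPKM + 1) of 9.66 against 2.62 in KO-labelled and 9.0 against 1.96 in WT cells. Tnfrsf9 differed by 6.80 and 8.55 and Gzmb by 5.75 and 6.28. Tnfrsf4, Tnfrsf9 and Gzmb were also among the genes ranked above as most like Foxp3 in the same cells. Of 12 genes of interleukin 2 receptor signalling, 6 were higher and 2 lower in each label, with medians of 0.98 and 0.96. The kinase gene Jak3, which transmits the signal, was higher by 3.06 and 2.85, Cish, a feedback gene, by 2.65 and 3.71, and the beta chain gene Il2rb by 2.5 and 3.32. The survival gene Bcl2 was lower, by -2.30 and -1.39, and was the only gene of this list below 0 in both labels. The other lower gene was thus not the same in KO-labelled and WT cells.

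Foxp3 partners and regulators were near the share of all genes higher in KO-labelled cells: 4 of 24 were higher and 2 lower in KO-labelled cells (median -0.03), and 8 of 23 were higher and 2 lower in WT cells (median 0.52). The Ikaros family gene Ikzf3 was higher by 3.19 and 2.22 and the AP-1 family gene Batf by 1.85 and 1.80. Foxp1 differed by -1.30 and -1.64, Ikzf1 by -0.80 and -2.63, Runx1 by 0.71 and 0.69 and Bach2 by -0.44 and -0.71, so Runx1 and Bach2 reached the call in neither label and Ikzf1 in WT alone. Of genes of conventional CD4 cells, 0 of 16 were higher and 5 lower in KO-labelled cells (median -0.75), and 2 of 14 higher and 7 lower in WT cells (median -0.92). Tcf7 differed by -3.55 and -4.31, Cd40lg, the CD40 ligand of helper cells, by -4.19 and -2.89, and the chemokine receptor Cxcr6 by -4.02 and -1.95. The chemokine Ccl5 was the one gene of that list named for a higher value, with 0.34 and 1.01.

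Between the genotype labels few members reached the size of a call. Over all CD4 cells, 1 of 9 members was higher in KO-labelled than in WT cells, against 7.73% of all 8176 genes, and 0 were lower, against 0.342%. The member was Il2ra, at 1.38, and the member median was 0.50, while that over all genes was 0.17. Foxp3 differed by 0.96, just under the call. That sign did not hold in cells matched on the number of genes, where Foxp3 was found in 41.7% of KO-labelled and 43.3% of WT cells and differed by -0.27, nor in the population libraries (-0.42). Il2ra was 0.68 in the matched cells. In CD8 cells, Capg was higher in the KO-labelled group by 1.87 and Ikzf2 lower by -1.21, 1 of 6 members either way, against 5.94% of all genes higher and 3.82% lower. Ikzf2 had the other direction in the CD8 population libraries, with 26.9 FPKM in KO and 12.9 FPKM in WT.

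Within cells with Foxp3, where the medians were 2809 genes in KO-labelled and 2822 in WT cells, Ikzf2 had the largest difference of the members. It was found in 31 of 39 KO-labelled cells (79.5%, interval 63.5 to 90.7%) and 30 of 30 WT cells (88.4 to 100%), with lowest, median and highest values of 0, 36.3 and 252.7 FPKM in KO-labelled and 4.74, 121.1 and 363.01 FPKM in WT cells. Values of the groups overlapped, and the difference was -2.38. It ran from -3.16 to -1.26 over 10 other settings, which were chosen after the data were seen. The CD4 population libraries, not split by Foxp3, had Ikzf2 at 53.4 FPKM in KO and 82.7 FPKM in WT. That difference, -0.62, was under the call, and 14.8% of all genes were lower by 1 or more between these libraries. In the cells with Foxp3, Ccr8 was lower by -1.56, with 43.6% of KO-labelled and 60% of WT cells, and Il2ra higher by 1.07. The Ccr8 difference was -0.99 with a pseudocount of 10 and -0.92 with the log of mean FPKM, under the call. These made 1 of 9 members higher, against 7.92% of all genes, and 2 lower, against 5.26%. The Il2ra difference was 0.20 without the cells that had 3 or more markers of other cell types. In cells without Foxp3, Nrp1 was higher in the KO-labelled group by 1.04, 1 of 5 members, against 12.5% of all genes, and 0 were lower, against 1.26%.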

How the data were processed

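Values are FPKM as deposited, normalized between libraries by the authors with the TMM method, as the table's name in the labels says. The submitters' processing notes name Bowtie, RSEM and mm10, with no versions. Their gene annotation was not given in the sources used here. FPKM hides depth, no molecular identifiers are described, and cDNA was amplified over 21 cycles, per the labels' protocols, so reads are not molecules.

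The table held 23420 genes and 378 libraries, and 298 of 374 single cells were kept at 1000 genes. Groups were read from titles. The members and lists were chosen with earlier results of these data known. All 163 list genes were matched, 2 under an older symbol. Differences are of mean log2(FPKM + 1) over cells, with the pseudocount 1, over genes found in 10% or more of the cells of one of the groups compared. The floor for a count of 0 is 3 cells. Named genes were each member, the 3 genes of each list with the largest value either way of the smaller of the KO and WT differences, and the 10 genes most like Foxp3. That ranking left out antigen receptor and mitochondrial genes, small RNA genes, and genes with predicted or RIKEN names.

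Depth was estimated from the steps of low FPKM values with GENCODE M21 transcript lengths for 21777 genes. Of low values, 73.2% (median over cells) came within 0.1 of a whole read, so no count test was run. Median estimated reads were 525700 in KO-labelled CD4, 280300 in WT CD4, 539800 in KO-labelled CD8 and 458300 in WT CD8 cells. No doublet caller was run. At least 1 CD8 chain was found in 29 of 78 KO-labelled and 24 of 79 WT CD4 cells. The estimator and the difference step were tested on simulated data. Gene coordinates are from GENCODE M21 (GRCm38) and promoters from RefSeq. Tools were Python 3.11.15, numpy 2.4.6, pandas 2.3.3, scipy 1.17.1 and matplotlib 3.10.9. Alternatives were other detection thresholds, pseudocounts, filters, cell subsets, matching on genes, thinning to 100000 reads, the log of the mean and the population libraries.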

Additional observations from a re-analysis of the deposited data

Results flagged for a closer look

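Swap70 pointed in opposite directions by cell type. Its mean log2(FPKM + 1) was lower in KO-labelled than in WT CD4 cells, by -0.30, and higher in KO-labelled than in WT CD8 cells, by 0.34. The difference between these, -0.638, was not tested, and neither value reached the size of 1 used for a call.

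Nrp1 also changed sign. Between cells with and without Foxp3 it differed by -0.80 in KO-labelled and by 0.36 in WT CD4 cells, and the difference between these, -1.17, was not tested.

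Foxp3 appeared in libraries that were left out for having under 1000 genes. It was found in 1 of 16 KO-labelled CD4 libraries (6.25%) and 1 of 15 WT CD4 libraries (6.67%), and in 0 of 18 KO-labelled and 0 of 27 WT CD8 libraries. Among the 5 CD4 libraries nearest to the limit on each side, 1 just inside and 1 just outside had Foxp3 in the KO-labelled group, and 0 on either side in WT.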

How the results depend on the processing

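Of 94 recomputed shares and member counts, 78 stayed within the interval or within 1.5 times of the value reported, and 16 did not. Without cells that held the other lineage's coreceptor, the Foxp3 share of WT CD4 cells was 27.3%. Members higher in KO-labelled than in WT CD4 cells (1) became 2 with a pseudocount of 0.1 (16.7% of all genes), without cells holding 3 or more myeloid markers (7.76%), without cells holding the other coreceptor (9.44%) and in the population libraries (9.89%), and 0 with a pseudocount of 10 (1.72%) and in cells matched on genes (3.41%), beside 7.73% as reported. Members lower there (0) became 1 with a minimum of 2000 genes (Ikzf2, 1.2% of all genes), 2 in matched cells (Ikzf2 and Swap70, 3.09%) and 2 in the population libraries (Ccr8 and Itgb8, 14.8%). Members higher in CD4 than in CD8 cells in WT (5) became 3 with a pseudocount of 10 (0.792% of all genes) and without the other coreceptor (1.78%), 8 in matched cells (9.22%), and 9 with the log of mean FPKM (11.3%) and in the population libraries (20.3%), beside 2.08% as reported. Members higher with Foxp3 in KO-labelled cells (7) became 4 with a pseudocount of 10 (5.42% of all genes, beside 14.9%). Of 498 recomputed member differences, 23 changed sign. In 22 of these the reported value was under the size of a call, among them Foxp3, Capg (-0.89 in matched cells) and Ccr8 (-1.54 in the population libraries) between KO-labelled and WT CD4 cells. The other 1 had been called: Ccr8, with against without Foxp3 in KO-labelled cells, was -0.0266 with the log of mean FPKM, where 1 cell without Foxp3 held 8843 FPKM. Another 25 fell under the call and 32 passed it. Thinned to 100000 reads, Foxp3 was found in 48.5% of KO-labelled and 39.7% of WT CD4 cells, against 50.6% and 40% unthinned in the same cells, after 1 and 9 shallower cells were left out. No paired analysis was possible because no label pairs a library of a group with a library of another, and the numbers in the titles are serial. The limits are 1 sample per group, no tie from cells to animals, and an Il27ra level that does not follow the KO label.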

Other observations

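Outside the cells with Foxp3, some members kept company with other genes. The genes below were chosen after their values were seen, from the pathway and marker lists. The phi coefficients are descriptions across cells that differ in depth. Nrp1 was found together with Gata3, a transcription factor of T cell development and type 2 helper cells, in 16 KO-labelled and 12 WT CD4 cells without Foxp3 and in 15 KO-labelled and 11 WT CD8 cells. The values were phi coefficients of 0.39 in KO-labelled and 0.31 in WT CD4 cells without Foxp3 and of 0.20 in KO-labelled and 0.25 in WT CD8 cells. Capg was found together with Tnfrsf9, a costimulatory receptor of activated T cells, with 0.25 in KO-labelled and 0.45 in WT CD4 cells without Foxp3 and 0.37 in KO-labelled and 0.34 in WT CD8 cells. That pair rests on 7 shared cells in each CD4 group and on 17 KO-labelled and 15 WT CD8 cells. Among CD8 cells, those with Nrp1 held more genes, with medians of 3306 against 2749 in KO-labelled and 4312 against 2663 in WT cells. For Capg the medians were 3112 against 2721 and 3844 against 2687. The part of this in the coefficients was not tested, and no share over all gene pairs is given beside them.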
